A study of Mus musculus with 2 samples.

Results

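The secreted and membrane-bound proteases that cut the extracellular matrix, together with the inhibitors that block them, were followed across cultured white and brown adipose progenitors. The members were chosen by gene symbol alone: 22 matrix metalloproteinases (MMPs), 19 proteases of the ADAMTS family and 4 tissue inhibitors of metalloproteinases (TIMPs), 45 genes of the 32285 listed. MMPs are zinc-dependent enzymes, made as inactive precursors, that cleave collagens, gelatin and other matrix proteins. ADAMTS proteases carry thrombospondin repeats and include the enzymes that trim procollagen and those that cleave the proteoglycans versican and aggrecan. TIMPs sit in the active site of these enzymes, and the balance between both sides is known to shape how fat depots expand and remodel.

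The cells came from subcutaneous white and interscapular brown depots of male and female C57/BL6J mice, by the labels at postnatal day 0, digested with collagenase for 35 minutes (white) or 50 minutes (brown), and were grown to confluency in 4 days, again by the labels, with no treatment. The study's methods give another age and the same time to confluency, while its results give a longer time in culture. A single 10x Genomics 3′ library was made per depot from pooled pups, so depot, library and digestion time cannot be told apart. The libraries held 5261 white and 7009 brown cells with medians of 26239 and 26411 unique molecular identifiers (UMIs, each a tagged RNA molecule), and 9 cell barcodes occurred in both. The authors' filter and the removal of glial, myeloid and myogenic cells left 4331 white and 5958 brown precursor cells. All 5 precursor markers (Pdgfra, Pdgfrb, Dlk1, Dcn and Lum) reached 10 CPM in both, where CPM is a gene's UMIs per 1000000 UMIs of the cells in a group. The authors' cluster names, available for 1999 cells per depot, were used: early adipose precursor clusters (wAPC 1 to wAPC 4 and bAPC 1 to bAPC 5), committed adipogenic precursors (wCAPs, 674 cells, and bCAPs, 296 cells) and fibro-adipogenic progenitor-like cells (wFAPLs, 256 cells, and bFAPLs, 279 cells). The clusters were drawn by the authors from RNA of the same cells, so differences between them are given as descriptions. With no replicate library, no test was possible between any groups, and the 95% intervals cover counting error only. The 15 cells named differentiating wFAPLs had 2921 CPM of 6 summed mural markers (genes of pericytes and smooth muscle) against 278 CPM in wFAPLs. Most of the 2921 CPM came from Myh11 alone, and the markers did not all move together. Rgs5, Kcnj8 and Notch3 were also higher than in wFAPLs. Abcc9 was level (60.8 and 60.2 CPM) and Cspg4 was lower (4.19 and 20.6 CPM). The 4 adipocyte markers (Adipoq, Plin1, Cidec and Lep) summed to 2.10 CPM in the differentiating wFAPLs, from Lep alone. They were also near 0 elsewhere, with 0 CPM in wFAPLs and 1.19 CPM in wCAPs. The study named this cluster from other genes, high Pparg and Fabp4 with low Pdgfra and Dlk1.

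Of the 45 members, 24 reached 10 CPM in at least 1 precursor cluster of 50 or more cells, and 16 did so in every such cluster. By family these were 9 of 22 MMPs, 12 of 19 ADAMTS genes and 3 of 4 TIMPs. Over all genes, 9911 of 32285 reached that level in at least 1 such cluster. The count of all genes that did so in every such cluster is not given. The members together made up 2787 CPM in white and 2871 CPM in brown precursor cells, and most in the FAPLs (3998 CPM in wFAPLs and 4365 CPM in bFAPLs). UMIs are counted at the 3′ end and are not scaled by transcript length. Unless the 15 differentiating wFAPLs are named, ranges and orders of clusters are over those with 50 or more cells.

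**Figure D1:**
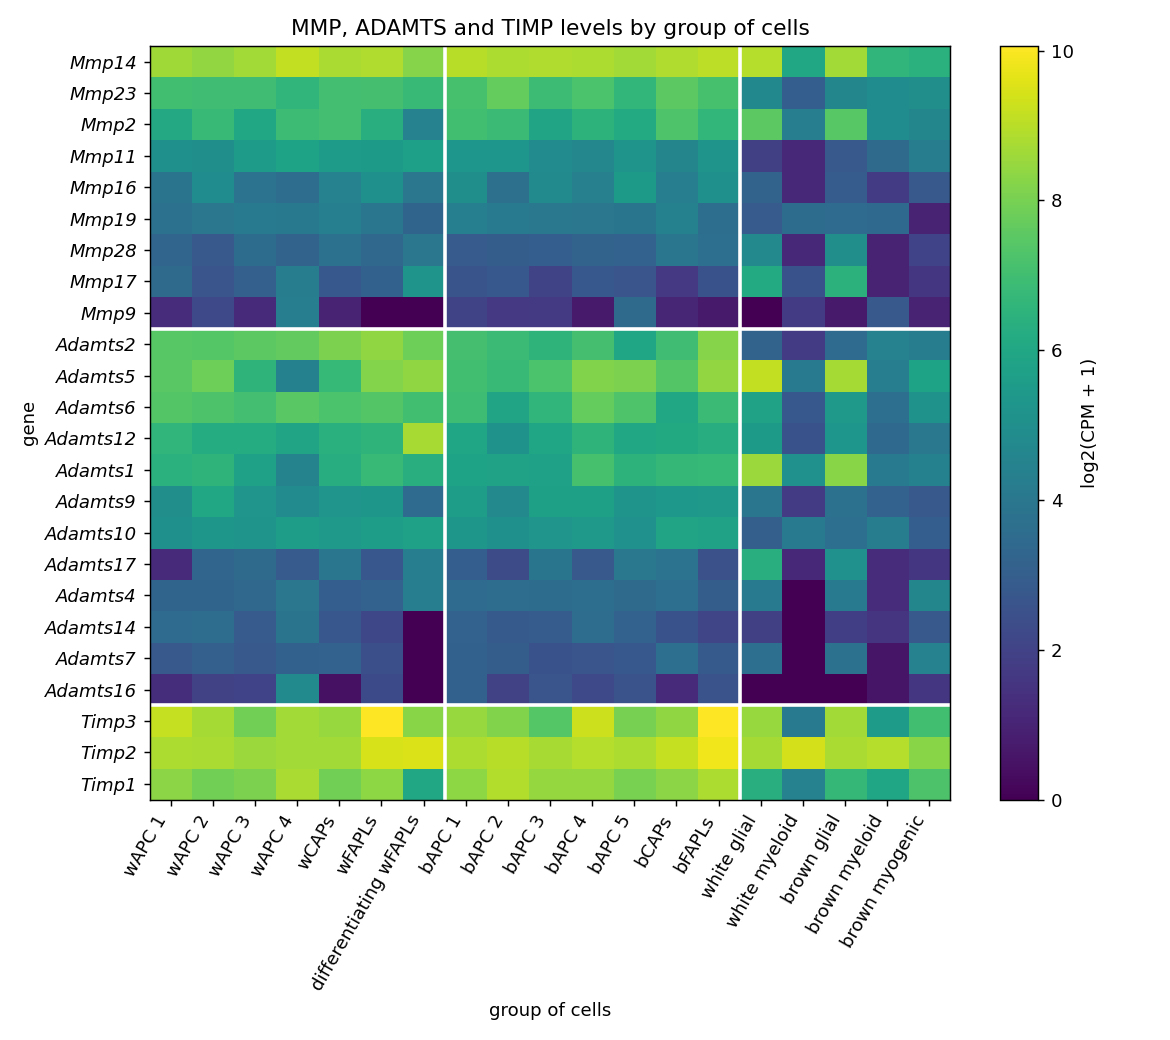
Levels of the 24 members with at least 10 CPM, as log2(CPM + 1), in the authors' white clusters (left block), brown clusters (middle block) and the glial, myeloid and myogenic cells (right block), with MMPs, ADAMTS genes and TIMPs as row blocks. Timp3 is brightest in wFAPLs (1069 CPM) and bFAPLs (1053 CPM), and Adamts16 reaches 26.5 CPM in wAPC 4 but at most 3.77 CPM in the other white clusters.

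A set of neighbouring MMP genes had almost no UMIs in the precursor cells. On chromosome 9 the 9 genes Mmp13, Mmp12, Mmp1b, Mmp3, Mmp10, Mmp8, Mmp27, Mmp20 and Mmp7, which include interstitial collagenases and the stromelysins Mmp3 and Mmp10, lie side by side (GRCm38 chr9:7272514-7699585). All 9 together gave 97 UMIs in white and 53 UMIs in brown precursor cells. Mmp10 was the member of the 45 with 0 UMIs in the precursor cells of both depots. Mmp3 made up most of the white count with 63 UMIs and had 7 UMIs in brown cells. Myeloid cells of the same libraries did hold some of these RNAs, with up to 134 CPM of Mmp12 and 7.02 CPM of Mmp13 in brown and 40.2 CPM of Mmp27 in white cells.

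The promoters of this cluster read differently from those of the other members. RefSeq windows (GRCm38.p6) were on hand for 31 of the 45 members, and the 250 bases before each gene start were searched on both strands for the AP-1 motif with the letters TGAGTCA, for the TATA box with the letters TATAAA and for the GC box with the letters GGGCGG, motifs that do not overlap in the sequences printed here. The AP-1 motif was found in 6 of the 9 genes of the cluster, in 0 of the 13 members at 10 CPM or more and in 0 of the 9 others, and in 4.46% of all 32851 windows in the table. A TATA box was found in 6 of the 9, 1 of the 13 and 1 of the 9 others, and in 12.4% of all windows. Both stood together in 5 genes of the cluster and in 0.721% of all windows. A GC box was found in 0 of the 9, in 10 of the 13 and in 6 of the 9 others, and in 32.7% of all windows. The cluster windows held 37.2% to 45.6% G and C, those of the members at 10 CPM or more 54.4% to 78.0%, and those of the 9 others 53.6% to 79.2%. The starts are those of RefSeq, and in 11 of the 31 genes, Timp2 and Timp3 among them, the 250 bases reached into the gene as GENCODE draws it. These matches describe letters in a window and not binding. The last 100 bases before the start of 3 cluster genes and of 3 members at 10 CPM or more, chosen after their values were seen from windows outside the GENCODE gene, show the contrast, with these motifs in capitals.
Mmp13: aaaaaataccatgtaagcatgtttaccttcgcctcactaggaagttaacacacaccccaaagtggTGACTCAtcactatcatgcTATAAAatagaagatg
Mmp3: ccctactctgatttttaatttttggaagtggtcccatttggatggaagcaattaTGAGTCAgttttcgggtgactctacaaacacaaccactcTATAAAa
Mmp10: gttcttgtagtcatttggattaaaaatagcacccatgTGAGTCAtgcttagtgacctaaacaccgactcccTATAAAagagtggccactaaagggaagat
Timp1: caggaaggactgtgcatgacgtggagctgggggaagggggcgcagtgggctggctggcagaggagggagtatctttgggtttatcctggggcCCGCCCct
Mmp14: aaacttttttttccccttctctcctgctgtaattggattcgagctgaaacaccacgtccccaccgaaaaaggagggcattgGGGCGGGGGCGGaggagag
Adamts1: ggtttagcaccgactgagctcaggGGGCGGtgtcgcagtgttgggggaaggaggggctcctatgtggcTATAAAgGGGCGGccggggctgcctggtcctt
The windows are chr9:7272414-7272513, chr9:7445722-7445821 and chr9:7502242-7502341 for Mmp13, Mmp3 and Mmp10, all on the plus strand. They are chrX:20870066-20870165 for Timp1 and chr14:54431498-54431597 for Mmp14 on the plus strand and chr16:85803114-85803213 for Adamts1 on the minus strand. Counted back from the base before the start as -1, the AP-1 motif begins at -35, -46 and -63 and the TATA box at -16, -7 and -29 in Mmp13, Mmp3 and Mmp10. Of the 13 members at 10 CPM or more that had a window, Adamts1 is the 1 with a TATA box, at -32, between GC boxes.

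Timp3, the inhibitor that stays bound to the matrix and blocks ADAMTS proteases as well as MMPs, had the widest range of the inhibitors. Its gene lies at chr10:86300372-86349506, with Syn3 on the opposite strand across it (15.6 CPM in white and 10.8 CPM in brown precursor cells). In white clusters Timp3 stood at 574 CPM in wAPC 1, 417 CPM in wAPC 2, 245 CPM in wAPC 3, 408 CPM in wAPC 4, 363 CPM in wCAPs and 1069 CPM in wFAPLs. In brown clusters it stood at 363 CPM in bAPC 1, 287 CPM in bAPC 2, 167 CPM in bAPC 3, 632 CPM in bAPC 4, 255 CPM in bAPC 5, 339 CPM in bCAPs and 1053 CPM in bFAPLs. The FAPLs of both depots held the highest level of their library, 4.37 times the lowest white cluster and 6.30 times the lowest brown cluster, and the counting intervals of wFAPLs (1045 to 1093 CPM) and bFAPLs (1030 to 1076 CPM) overlapped. The lowest clusters, wAPC 3 and bAPC 3, were also those with the fewest cells in G1 (38.1% and 28.7%). By cycle phase, Timp3 stood at 504 CPM in G1, 518 CPM in S and 449 CPM in G2/M in white cells and at 456, 403 and 349 CPM in brown cells. The part of the cycle in these cluster levels was not tested.

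Per cell, Timp3 was spread over nearly all FAPLs. After each cell was thinned to 10000 UMIs, 97.7% of wFAPLs and 93.2% of bFAPLs had at least 1 Timp3 UMI, against 73.3% of wCAPs and 71.6% of bCAPs. The early clusters ran from 52.0% in bAPC 3 to 89.6% in wAPC 1, with 89.4% in bAPC 4, so some came close to bFAPLs. Before thinning the shares ran from 69.0% in bAPC 3 to 98.8% in wFAPLs, with 84.8% in bCAPs. Without thinning, bAPC 4 (95.8%) and wAPC 1 (97.6%) lay above bFAPLs (94.98%). Median UMI counts per cell were 26730.5 in wFAPLs, 25194 in bFAPLs, 26992.5 in wCAPs and 25900.5 in bCAPs. Myeloid cells, in which Timp3 RNA was low, gave 13.8% in white and 19.2% in brown cells after thinning (20.7% and 30.8% before) at medians of 30076 and 26773.5 UMIs. No cell of these groups was lost to thinning. The middle cell held 8 Timp3 UMIs per 10000 in wFAPLs and 7 in bFAPLs, and 2 in both CAP clusters.

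**Figure D2:**
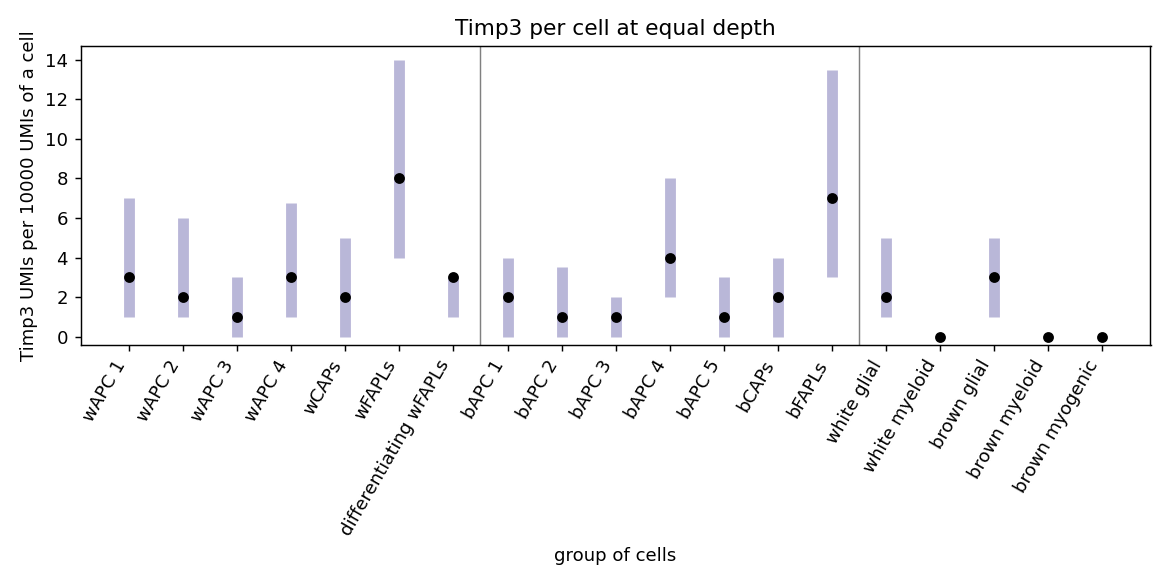
Timp3 UMIs per cell after thinning to 10000 UMIs, with the median as a point and the quartiles as a bar, in white clusters, brown clusters and other cells. The lower quartile was 4 in wFAPLs and 3 in bFAPLs, and 0 in both CAP clusters.

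Timp2, which inhibits MMPs and also docks pro-MMP2 onto Mmp14 for activation, was even across most clusters and highest in FAPLs. It ranged from 378 CPM in wAPC 3 to 707 CPM in wFAPLs and from 430 CPM in bAPC 3 to 914 CPM in bFAPLs, with 749 CPM in the differentiating wFAPLs. Timp1, an inhibitor that is weak against membrane-type MMPs, followed another order. Its highest levels were 438 CPM in wAPC 4 and 483 CPM in bAPC 2, ahead of 323 CPM in wFAPLs and 448 CPM in bFAPLs, and its lowest were 239 CPM in wCAPs and 263 CPM in bAPC 5. Timp4, known from heart and mature fat, had 15 UMIs in white and 22 UMIs in brown precursor cells (0.12 and 0.13 CPM).

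**Figure D3:**
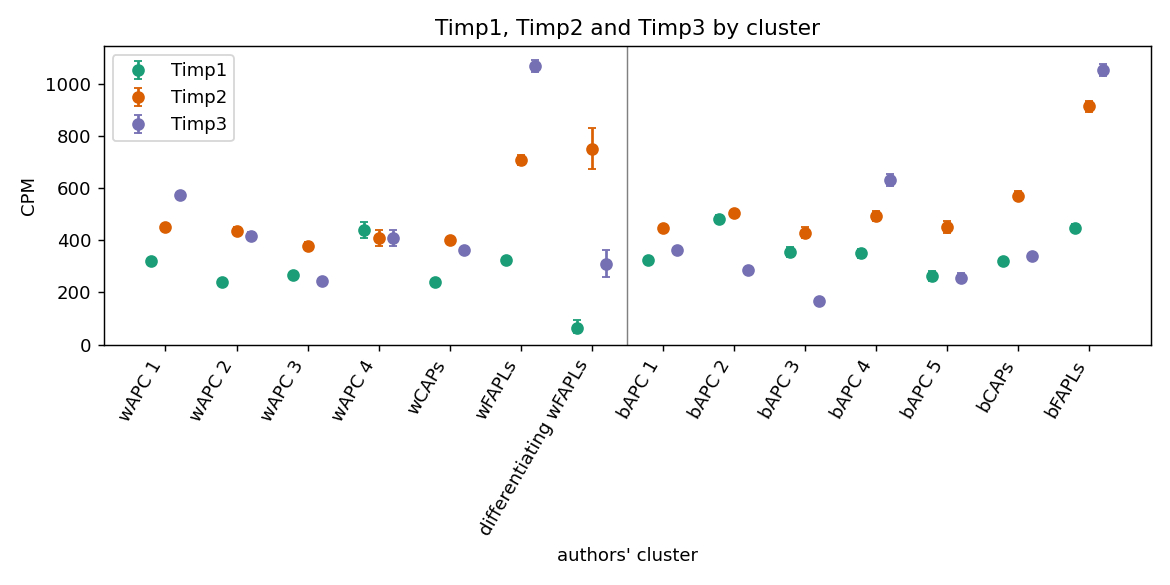
CPM of Timp1, Timp2 and Timp3 in the authors' clusters, white to the left of the line and brown to the right, with exact 95% Poisson intervals for counting error. Timp3 peaks in wFAPLs (1069 CPM) and bFAPLs (1053 CPM), while Timp1 peaks in wAPC 4 (438 CPM) and bAPC 2 (483 CPM).

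Among the precursor clusters, TIMPs outnumbered the proteases in UMIs only in wFAPLs and bFAPLs. Their share was 52.5% (95% Clopper-Pearson interval 51.9% to 53.1%) in wFAPLs and 55.3% (54.8% to 55.9%) in bFAPLs, against 38.3% (37.8% to 38.7%) in wCAPs and 44.1% (43.5% to 44.8%) in bCAPs. The early clusters lay between 39.7% in wAPC 3 and 49.1% in bAPC 2. The 15 differentiating wFAPLs had 37.2%. TIMPs and ADAMTS genes were higher in the FAPLs of both depots, while MMPs were slightly lower. In white cells TIMPs summed to 2099 CPM in wFAPLs and 1003 CPM in wCAPs, ADAMTS genes to 1116 and 811 CPM, and MMPs to 782 and 808 CPM. In brown cells TIMPs summed to 2415 CPM in bFAPLs and 1231 CPM in bCAPs, ADAMTS genes to 1078 and 672 CPM, and MMPs to 872 and 887 CPM.

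Among the proteases, Mmp14, the membrane-anchored collagenase that activates pro-MMP2, had the highest UMI level in every precursor cluster of 50 or more cells. It ranged only from 346 CPM in wAPC 2 to 558 CPM (523 to 595) in wAPC 4 and from 409 CPM in bAPC 5 to 533 CPM in bFAPLs, so its highest white cluster was 1.61 times its lowest. Of the other membrane-type enzymes, Mmp16 was highest in wFAPLs (31.9 CPM) and bAPC 5 (44.3 CPM), and Mmp17, held by a lipid anchor, in wAPC 4 (17.7 CPM). Mmp2, gelatinase A, was higher in CAPs than in FAPLs, the reverse of Timp1, Timp2 and Timp3. It was highest in wCAPs (133 CPM, 128 to 139) and bCAPs (156 CPM, 147 to 165) and lowest in wAPC 3 (62.0 CPM) and bAPC 3 (57.7 CPM). In the cycle it stood at 119 CPM in G1, 62.8 CPM in S and 66.3 CPM in G2/M in white cells and at 135, 73.8 and 77.0 CPM in brown cells, so both depots gave the same order.

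Mmp23, an MMP with an N-terminal membrane anchor, was even in white clusters (98.4 to 134 CPM) and highest in bAPC 2 (206 CPM) among brown ones. Mmp11, a stromelysin activated inside the cell, ranged from 31.3 to 56.0 CPM in white and from 22.8 to 38.5 CPM in brown clusters, and lies across from Chchd10 on the other strand. Mmp19 and Mmp28 were low everywhere, and both were highest in the CAPs of each depot: Mmp19 at 19.5 CPM in wCAPs and 20.7 CPM in bCAPs, and Mmp28 at 12.7 and 14.6 CPM.

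Adamts2, the main procollagen N-propeptidase, which lets fibrillar collagens assemble, was highest in wFAPLs (331 CPM) and bFAPLs (302 CPM). White clusters held at least 169 CPM, whereas bAPC 5 had 59.2 CPM (51.1 to 68.2) and bAPC 3 92.7 CPM. Adamts14, its close relative, stayed between 3.32 and 13.6 CPM and was lowest in the FAPLs of both depots.

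The proteoglycan-cleaving enzymes Adamts5 and Adamts1 are neighbours on chromosome 16 (chr16:85856173-85901828 and chr16:85793827-85803113). Adamts5 was highest in the FAPLs, with 289 CPM (276 to 301) in wFAPLs and 346 CPM (333 to 359) in bFAPLs, and lowest in wAPC 4 with 20.6 CPM (14.4 to 28.7) and in bAPC 2 with 111 CPM. Adamts1 was also lowest in wAPC 4 (21.8 CPM, 15.4 to 30.1) and highest in wFAPLs (108 CPM) and bAPC 4 (139 CPM). Adamts9 ranged from 26.0 to 62.5 CPM and Adamts4 from 6.77 to 14.7 CPM.

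Adamts6 and Adamts10, a related pair linked to fibrillin microfibrils, differed in evenness. Adamts6 was even in white clusters (131 to 180 CPM) but ran from 57.1 CPM in bAPC 2 to 207 CPM (194 to 221) in bAPC 4 in brown ones. Adamts10 stayed between 32.2 and 58.4 CPM in all. Adamts12, which cleaves the matrix protein COMP, ranged from 34.8 CPM in bAPC 2 to 96.7 CPM in wAPC 1, and its relative Adamts7 reached 10 CPM only in bCAPs (11.7 CPM). Adamts17, a gene of fibrillin-related connective tissue disease, was at 1.32 CPM (0.80 to 2.07) in wAPC 1 against 14.3 CPM in wCAPs, and its highest brown level was 15.2 CPM in bAPC 5.

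Of the 23 members that reached 10 CPM in a white cluster, 9 (39.1%) were highest in the 62 cells of wAPC 4 and 8 (34.8%) in wFAPLs, beside 25.7% and 17.1% of all 9624 genes at that level. The 9 were Mmp9, Mmp11, Mmp14, Mmp17, Adamts4, Adamts6, Adamts14, Adamts16 and Timp1. Mmp9, gelatinase B, stood at 18.9 CPM (12.9 to 26.6) and Adamts16 at 26.5 CPM (19.3 to 35.5), while the next white clusters had 3.61 and 3.77 CPM. Those 2 levels came from few cells, 32 Mmp9 UMIs in 11 cells and 45 Adamts16 UMIs in 10 cells. In wFAPLs Mmp9 had 0 UMIs, which allows up to 0.42 CPM. The only other precursor cluster of 50 or more cells with Mmp9 at 10 CPM was bAPC 5 (10.2 CPM, from 33 UMIs in 22 cells).

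In white cells, wFAPLs were set against wCAPs to see how the lineages differ in matrix turnover. Timp3 was higher in wFAPLs by 1.56 on the log2 scale (1.51 to 1.60) and Adamts5 by 1.46 (1.37 to 1.55), whereas Adamts17 was lower, with a log2 ratio of -1.32 (-1.83 to -0.84). These 3 of the 18 members with at least 10 CPM in either group passed 2-fold, 2 of them higher, while 3.85% of all 9199 genes at that level passed (2.25% higher and 1.60% lower). Short of 2-fold, Timp2 had a log2 ratio of 0.82, Mmp16 of 0.60, Adamts1 of 0.51, Timp1 of 0.44 and Adamts2 of 0.29 (0.22 to 0.36). Mmp2 lay on the wCAP side at -0.78 (-0.92 to -0.65), as did Mmp19 and Mmp28 at -0.43 each. The median absolute log2 ratio was 0.43 for the members and 0.16 for all genes, and the median itself 0.16 and -0.01.

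In brown cells, 4 of 20 members passed 2-fold between bFAPLs and bCAPs, 3 of them higher, beside 3.87% of all 9148 genes (1.86% higher and 2.01% lower). Timp3 was higher in bFAPLs by 1.64 on the log2 scale, Adamts2 by 1.28 (1.17 to 1.39) and Adamts5 by 1.07 (0.97 to 1.16). Adamts17 was lower with a log2 ratio of -1.53 (-2.12 to -0.97). Values short of 2-fold were 0.88 for Adamts6, 0.77 for Mmp16, 0.68 for Timp2, 0.67 for Mmp11 and 0.49 for Timp1 on the bFAPL side. On the bCAP side they were -0.91 for Adamts7, -0.88 for Mmp19, -0.79 for Adamts4, -0.63 for Mmp2 and -0.41 for Mmp23. The median absolute log2 ratio was 0.68 for the members and 0.16 for all genes. With cells thinned to 10000 UMIs, 7 members passed, 5 of them higher. The share of all genes after thinning is not given, so this count has no background beside it.

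Both depots thus gave a like list. Timp3, Adamts5 and Adamts17 passed 2-fold in the same direction in each, and 15 of the 18 members measured in both had the same sign (83.3%), beside 64.8% of 8877 genes. Pearson's r of the log2 ratios, over genes that share their libraries, was 0.85 for the members and 0.66 for all genes. Adamts2 was the clearest departure, at 0.29 in white and 1.28 in brown cells, with intervals that did not overlap. Adamts6 (0.15 and 0.88) and Mmp11 (-0.08 and 0.67) had the same pattern.

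**Figure D4:**
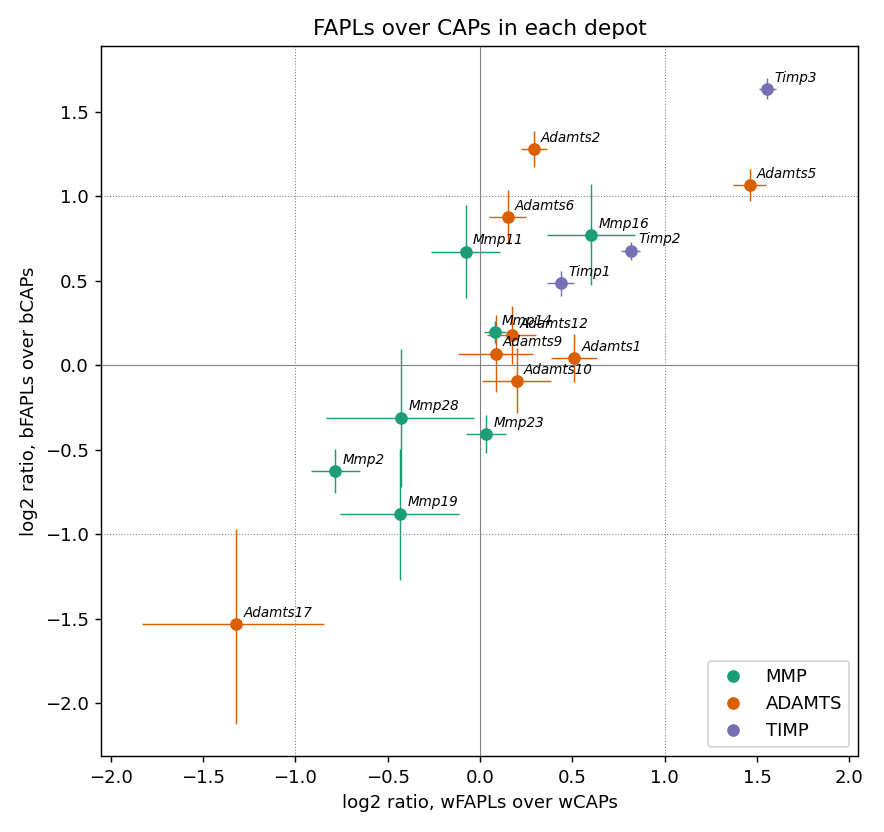
Log2 ratio of each member in wFAPLs over wCAPs (horizontal) and bFAPLs over bCAPs (vertical), with 95% conditional binomial intervals for counting error and dotted lines at 2-fold. Timp3 (1.56 and 1.64) and Adamts5 (1.46 and 1.07) lie at the upper right, Adamts17 (-1.32 and -1.53) at the lower left, and Adamts2 (0.29 and 1.28) far above the diagonal.

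Mural markers moved with the lineages and are given beside these values. The 6 markers summed to 278 CPM in wFAPLs and 48 CPM in wCAPs, and to 254 CPM in bFAPLs and 80 CPM in bCAPs, and 40.6% of wFAPLs and 45.2% of bFAPLs carried at least 5 of their UMIs. Without such cells the log2 ratio of Timp3 was 1.49 in white and 1.78 in brown cells, so it was about as large. Adamts5 stood at 1.21 in white cells and at 0.87 in brown cells, under 2-fold there. The ratio of Adamts2 was 0.20 in white and 1.18 in brown cells, that of Adamts17 -1.34 and -1.42, and that of Mmp2 -0.66 and -0.37. Adamts12 took the other sign, from 0.17 to -0.30 in white and from 0.18 to -0.17 in brown cells. The 15 differentiating wFAPLs, all of which carried such UMIs, had 434 CPM (377 to 497) of Adamts12 against 92.3 CPM in wFAPLs, and only 65.0 CPM (44.2 to 92.3) of Timp1 and 21.0 CPM (10.1 to 38.6) of Mmp2.

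Between the depots as a whole, 0 of 18 members passed 2-fold, beside 1.84% of 9037 genes (1.11% higher and 0.73% lower in white). Of these 18, the members farthest apart were Adamts2, at 224 CPM in white and 143 CPM in brown precursor cells (log2 ratio 0.65, 0.63 to 0.68), Adamts6 at 149 and 104 CPM (0.52, 0.49 to 0.55), and Adamts12 at 83.9 and 61.8 CPM (0.44). Timp1 led on the brown side, at 283 and 380 CPM (-0.43, -0.45 to -0.41), followed by Mmp16 at -0.38. Timp3 differed by 0.22 in favour of white and Timp2 by -0.23 in favour of brown cells, and 12 of the 18 ratios were below 0. The median log2 ratio was -0.11 for the members and 0.04 for all genes. The share of all genes below 0 is not given.

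Within the lineages the depots were compared again. Between wFAPLs and bFAPLs 0 of 17 members passed 2-fold, beside 1.69% of 9136 genes (1.04% higher and 0.646% lower in white), and Timp3 differed by 0.02 (-0.02 to 0.07). Between wCAPs and bCAPs 3 of 20 did, all higher in white, beside 4.32% of 9235 genes (2.18% higher and 2.14% lower in white). These were Adamts6 with 148 CPM in wCAPs and 62.7 CPM in bCAPs (log2 ratio 1.24, 1.10 to 1.38), Adamts2 with 271 and 124 CPM (1.13, 1.03 to 1.22) and Mmp11 with 46.2 and 22.8 CPM (1.02, 0.79 to 1.25). The count of 3 was 1 when all precursor cells were labelled from their neighbours, with Adamts6 left at 1.07. In the other direction Adamts4 stood at -0.72, Adamts5 at -0.66 and Timp2 at -0.51. For Adamts2 and Adamts6 the FAPL ratios were 0.14 and 0.51, with intervals apart from those of the CAPs. The same 4 groups of cells gave the lineage ratios above, so this restates the departures of these genes given there.

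**Figure D5:**
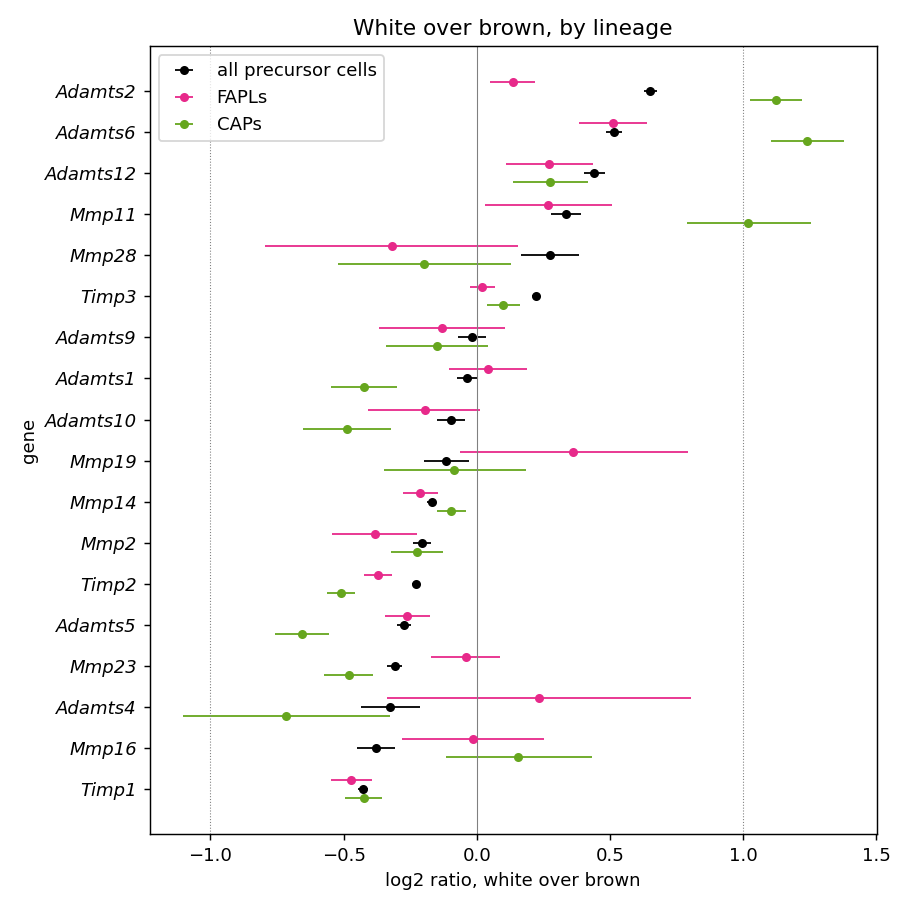
Log2 ratio of white over brown cells for the 18 members with at least 10 CPM in either depot, in all precursor cells, FAPLs and CAPs, with 95% intervals for counting error and dotted lines at 2-fold. Adamts6 (1.24), Adamts2 (1.13) and Mmp11 (1.02) pass the line in CAPs, and no member passes it in FAPLs or in all precursor cells.

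The few other cells in the cultures differed from the precursors in several members. Glial cells (47 white and 68 brown) held 564 CPM and 417 CPM of Adamts5 and 373 CPM and 310 CPM of Adamts1. They also held 83.2 CPM and 104 CPM of Mmp15 and 70.4 CPM and 87.4 CPM of Mmp17, both membrane-type enzymes, and Mmp15 was at 1.19 CPM in white and 1.59 CPM in brown precursor cells. Adamts2 was low in glial cells, at 8.2 and 10.6 CPM. Other glial values were closer to those of the precursors. MMPs summed to 895 CPM in white and 853 CPM in brown glial cells, beside 738 and 830 CPM in precursor cells. Mmp14 stood at 488 CPM in white glial cells and 419 CPM in white precursor cells. Myeloid cells (29 white and 78 brown) were where Mmp12, macrophage elastase, appeared, at a level of 76.9 CPM (59.4 to 98.0) in the white library and of 134 CPM (119 to 151) in the brown one. Myeloid cells kept Timp2 (679 and 494 CPM) with little Timp3 (16.6 and 44.5 CPM) or Adamts2 (2.37 and 21.1 CPM). Their TIMPs summed to 717 and 600 CPM, under the 1235 and 1340 CPM of precursor cells. The proteases were lower still, with MMPs at 233 and 351 CPM and ADAMTS genes at 82.8 and 113 CPM. TIMPs thus made up 69.4% and 56.4% of the member UMIs of myeloid cells. The 33 myogenic cells of the brown library had 998 CPM of members in all, led by Timp2 with 305 CPM.

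Genes that act with these proteases were counted by the same rule, from lists of activators and binding partners, ADAMTS-like proteins, ADAM sheddases and substrates. In wFAPLs over wCAPs, 0 of 7 activators and partners at 10 CPM were higher and 1 lower: Pcsk5, a proprotein convertase, at 85.6 and 200 CPM (log2 ratio -1.22). Of 3 ADAMTS-like genes, which lack the protease domain, 0 were higher and 1 lower (Adamtsl1, -1.01). Of 8 ADAMs 1 was higher (Adam33, 1.37), and of 5 substrates 1 was higher (Comp, 11.2 and 1.24 CPM, 3.17). In bFAPLs over bCAPs, 0 of 8 activators and 0 of 7 ADAMs passed, Adamtsl5 was higher (1.01) and Adamtsl1 (-1.45) and Adamtsl3 (-1.11) were lower of 3 ADAMTS-like genes, and Comp was higher of 5 substrates (1.38). Fibronectin (Fn1) stood at 0.69 in white and 0.68 in brown cells and versican (Vcan), the substrate of Adamts1 and Adamts5, at -0.57 and -0.33. Between the depots as a whole 0 genes of the 4 lists passed 2-fold, with Vcan at 571 CPM in white and 288 CPM in brown cells (0.99) and Pcsk5 at 124 and 62.7 CPM (0.98). In CAPs over the depots, Vcan (1.28), Pcsk5 (1.47) and Adam12 (1.04) were higher in white and Adamtsl3 was lower (-2.01). In FAPLs over the depots, Vcan (1.04) and Adam33 (1.85) were higher in white.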

How the data were processed

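As deposited by the authors, the values were raw UMI counts for each gene in each cell, made with Cell Ranger 7.0.1 (submitters' processing notes) against mm10, not normalized. That version counts intronic reads by default and uses strand. The genes were chosen by symbol, and the members and lists were chosen with earlier results of these data known. Cells with 3900 to 7700 genes, 6000 to 60000 UMIs and 1.7 to 5% mitochondrial UMIs were kept (4407 white, 6137 brown), with limits from the study's methods. The brown count differs from the one the study states. Doublets were limited only by the upper bounds, with no caller. Clusters of glial, myeloid and myogenic cells were rebuilt with Seurat 5.3.0 (R 4.3.3) and named from markers. The authors' cluster labels came from their source data, which hold 1999 cells per depot. For the alternative with labels on all precursor cells, the vote of 15 nearest labelled cells was used, which returned the own label of 91.7% of white and 88.0% of brown held-out cells.

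UMIs were summed over the cells of a group and divided by all their UMIs (CPM). Exact Poisson, Clopper-Pearson and conditional binomial intervals (95%) were computed with SciPy 1.17.1 in Python 3.11.15. A gene passed where the fold was at least 2 and CPM at least 10 in either group. A UMI count of 0 allows up to 3 counts. Ratios and intervals were checked on simulated Poisson counts with known folds, which hold no spread between cells, cultures or animals. That check covers the computation alone. Every member at 10 CPM in a precursor cluster of at least 50 cells, every TIMP, and any member at 50 CPM in glial, myeloid or myogenic cells was named. Other names (the chromosome 9 genes) were chosen after their values were seen. Gene positions are from GENCODE for GRCm38. Alternatives were median-of-ratios scaling, the mean of per-cell CPM, thinning to 10000 UMIs, G1 cells, other floors, labelled cells, captured cells with at least 1000 genes and, added after seeing the data, leaving out cells with 5 or more mural marker UMIs.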

Additional observations from a re-analysis of the deposited data

How the results depend on the processing

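Among the alternatives, 19 of 558 single-gene ratios took the other sign, none of them of a member past 2-fold and all with a ratio of at most 0.18 (log2) as reported. Of these ratios 458 moved by less than their counting interval and 100 moved further. Scaling moved the median of all genes by less than 0.1 (log2). With a floor of 1 CPM, members past 2-fold numbered 2 between the depots (2 higher), 8 for white lineages (5 higher, 3 lower), 8 for brown lineages (6 and 2), 2 for FAPLs (2 higher) and 7 for CAPs (6 and 1). With no floor they numbered 4 (3 and 1), 7 (5 and 2), 9 (7 and 2), 2 (2 higher) and 6 (5 and 1). With a floor of 50 CPM the lower members of both lineage comparisons were 0. For brown lineages, thinning gave 7 (5 higher and 2 lower), G1 cells gave 2 lower, and leaving out cells with mural marker UMIs, chosen after seeing the data, gave 3 lower. Carried-over labels gave 1 (1 higher) for CAPs across depots. With no floor, genes with 0 UMIs in a group have no ratio and were left out, while the floor of 1 CPM counted them. The lower floors take in members with few UMIs, such as Adamts16 with 27 UMIs in wFAPLs and 7 UMIs in wCAPs. Shares of all genes past 2-fold are not given for these alternatives. Their counts show how calls moved and are not set against a background. The cause of the other shifts was not tested.

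The TIMP share of member UMIs moved past its counting interval in some clusters, and the order with FAPLs highest in each depot was kept in these values. In G1 cells it was 46.3% in wAPC 1, 37.5% in wCAPs, 51.3% in wFAPLs, 41.0% in bAPC 1, 38.7% in bAPC 3, 42.6% in bCAPs and 53.8% in bFAPLs. With carried-over labels it was 42.6% in wAPC 2, 40.6% in wAPC 3, 39.2% in wCAPs, 49.8% in bAPC 2, 41.2% in bAPC 5 and 54.7% in bFAPLs. With thinned cells it was 42.4% in wAPC 4, 48.4% in bAPC 2, 44.5% in bAPC 4 and 54.4% in bFAPLs. No paired analysis was possible because each depot has 1 library and no test was run. Members near 10 CPM rest on few UMIs in small clusters such as wAPC 4, and counting intervals hold no spread between animals or cultures.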
